A study of Mus musculus with 36 samples.

Results

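The 10 enzymes that turn cholesterol into conjugated bile acids were followed in mouse liver: Cyp7a1, Cyp8b1, Cyp27a1, Cyp7b1, Hsd3b7, Akr1d1, Amacr, Acox2, Slc27a5 and Baat. They were chosen by name from the 49315 genes of the expression table, each name matched 1 row, and all 10 passed the filter on low values. The nuclear receptor LXRalpha (liver X receptor alpha), which senses oxidised cholesterol, was unchanged in W/W mice. Other mice had its tryptophan 441 changed to phenylalanine by CRISPR, on 1 allele (W/F) or on both (F/F). The labels name no promoter or Cre that would limit the change to 1 tissue. PolyA RNA of the liver was sequenced in 36 males, aged 11 to 12 weeks, with 4 mice in each of 9 groups. In each genotype, 1 group ate normal chow, a second ate a diet rich in fat and cholesterol (Teklad TD.96121, here the MASH diet, for metabolic dysfunction-associated steatohepatitis) for 4 weeks and received vehicle, and the third ate the MASH diet and received T0901317, a synthetic LXR agonist. T0901317 was given at 10 mg/kg and, like the vehicle, by daily oral gavage over the last 2 weeks. The chow mice were an independent cohort and no vehicle is stated for them, so diet, gavage and cohort cannot be told apart in any comparison with chow.

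Bile acid synthesis is the main route by which the liver disposes of cholesterol. The classic route begins with Cyp7a1, the rate-limiting hydroxylase, and Cyp8b1 then sets how much of the product becomes cholic acid. The alternative route begins with the side-chain hydroxylase Cyp27a1, whose oxysterol products are hydroxylated further by Cyp7b1. Hsd3b7 and Akr1d1 reshape the steroid rings, Amacr and Acox2 prepare the side chain for shortening in peroxisomes, and Slc27a5 and Baat join the product to coenzyme A and then to taurine or glycine. In mice Cyp7a1 is a known target of LXRalpha, while bile acids returning to the liver act through the receptor Nr1h4 (FXR) and its target Nr0b2 (SHP) to repress Cyp7a1 and Cyp8b1.

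Because Cyp8b1 had the largest change of the 10 against W/W in both mutants on vehicle, the 250 bases before its start are shown (chr9:121916306-121916555, minus strand, GRCm38.p6, from RefSeq, written in the direction of transcription). Capitals mark 3 motifs found by searching both strands. They are CAAAGTCCA, a binding core of the liver factor HNF4A, CAAGGNCA, a core of LRH-1 (Nr5a2) that overlaps it, and TATAAA, the TATA box.

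Cyp8b1: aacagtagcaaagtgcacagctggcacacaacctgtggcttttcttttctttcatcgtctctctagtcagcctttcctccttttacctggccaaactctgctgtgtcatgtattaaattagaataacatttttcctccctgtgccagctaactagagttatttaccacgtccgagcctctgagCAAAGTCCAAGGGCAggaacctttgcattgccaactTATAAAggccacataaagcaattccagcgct

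The 3 matches began at -67, -60 and -31 from the start. Among 32851 such windows of mouse genes, 0.384% held the first motif, 5.53% the second and 12.4% the third. RefSeq windows were at hand for 5 of the 10 enzymes (Cyp8b1, Cyp27a1, Hsd3b7, Akr1d1 and Acox2, the last with 2 starts). A direct repeat of AGGTCA with 4 bases between, the class of element that LXR binds with RXR, was in none of the 6 windows and in 0.0152% of all windows. Its half-site AGGTCA occurred in the window of Akr1d1 at 2 places and in 14.0% of all windows. Such matches are descriptions of sequence and were not tested for binding.

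Levels are given as TPM (transcript abundance corrected for gene length, with the same total in each library), with replicates listed in the order 1 to 4. The steps between low TPM values gave depths of 18.04 to 35.7 M reads per library. Between them the enzymes received from 216 reads (Cyp8b1 at its lowest) to 28342 reads (Slc27a5 at its highest) in a library. Replicates correlated across genes with r of 0.962 to 0.987. The W/F T0901317 replicate 2 stood apart from its group on the first principal component, at 1.00 against 44.9 to 54.5, and leaving it out changed no call for the 10 enzymes. Transcript of Nr1h3, the usual symbol for LXRalpha where the design text gives Nr1h2, was present in every group, from 79.1 to 124 TPM over the 36 mice, and transcript levels do not show which allele a mouse carries. Fold changes are differences of log2(TPM + 1) with their standard errors, tested with limma over 16638 genes in 19 comparisons. A gene counts as called where its adjusted p (Benjamini-Hochberg, within a comparison) was under 0.05. The labels do not say whether mice of a group were littermates, so the tests measure only the spread between these animals.

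TPM values in a library share a fixed total, so a shift in abundant transcripts moves the rest. All fold changes were therefore also computed after rescaling each library by the median ratio of its genes to their geometric mean over all libraries. The rescaling factors were 0.692 to 0.851 in W/W vehicle, 1.14 to 1.33 in W/F vehicle and 1.42 to 1.47 in F/F vehicle mice. Over all genes the median fold change of F/F against W/W on vehicle was 0.70 as deposited and 0.04 after rescaling, on the log2 scale. A value called rescaled comes from the second scaling, and every other value from the TPM as deposited.

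The heaviest loss of these transcripts was in mutant livers on the MASH diet with vehicle. The TPM of the 10 enzymes summed to 2593 to 2763 in W/W vehicle mice, 1235 to 1402 in W/F vehicle mice and 871 to 1013 in F/F vehicle mice. No vehicle mouse of either mutant genotype reached the lowest W/W mouse. F/F against W/W on vehicle, all 10 enzymes were lower, where 7.13% of all genes tested were called lower and 69.3% higher, and in 9 of them the 4 F/F mice lay below all 4 W/W mice, where 6.09% of all genes did. The median change of the enzymes was -1.36 on the log2 scale. After rescaling all 10 were lower with a median of -2.21, where 27.7% of all genes were called lower. W/F against W/W on vehicle, 8 enzymes were lower and none higher, where 6.83% of all genes were called lower and 61.6% higher, with a median of -0.69. All 10 were lower after rescaling, where 25.3% of all genes were called lower.

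On chow the loss was narrower. In F/F against W/W mice 5 enzymes were lower (Cyp7a1, Cyp27a1, Cyp7b1, Slc27a5 and Acox2) and none higher, where 3.65% of all genes were called lower. After rescaling, Baat was lower as well, making 6, where 13.8% of all genes were called lower. The enzymes summed to 1865 to 2585 TPM in F/F chow mice and 2802 to 3065 TPM in W/W chow mice, so these groups did not overlap. W/F against W/W on chow, limma called none of the 10 under either scaling, where 0.487% of all genes were called as deposited and 0.601% after rescaling, and 2 of the 10 had an unadjusted p under 0.05.

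With T0901317 the transcripts rose toward the W/W level in the mutants, most broadly in W/F mice. Of the 10 enzymes, 9 were higher with T0901317 than with vehicle in W/F, where 6.59% of all genes were called higher, and in 9 the 4 treated mice lay above the 4 vehicle mice, where 5.49% of all genes did. Acox2 was the exception as deposited, and after rescaling all 10 were higher, where 23.5% of all genes were. In F/F mice 6 were higher, where 3.95% of all genes were called higher, and after rescaling 8 were, where 8.28% of all genes were. In W/W mice 1 was higher and 2 were lower, where 7.87% of all genes were called higher and 2.91% lower. The summed level reached 2430.2 to 2933 TPM in W/F mice with T0901317, overlapping with the 2187 to 2802 TPM of W/W mice with T0901317. In F/F mice it reached 1452 to 1937 TPM, below every W/W mouse with T0901317.

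**Figure D1:**
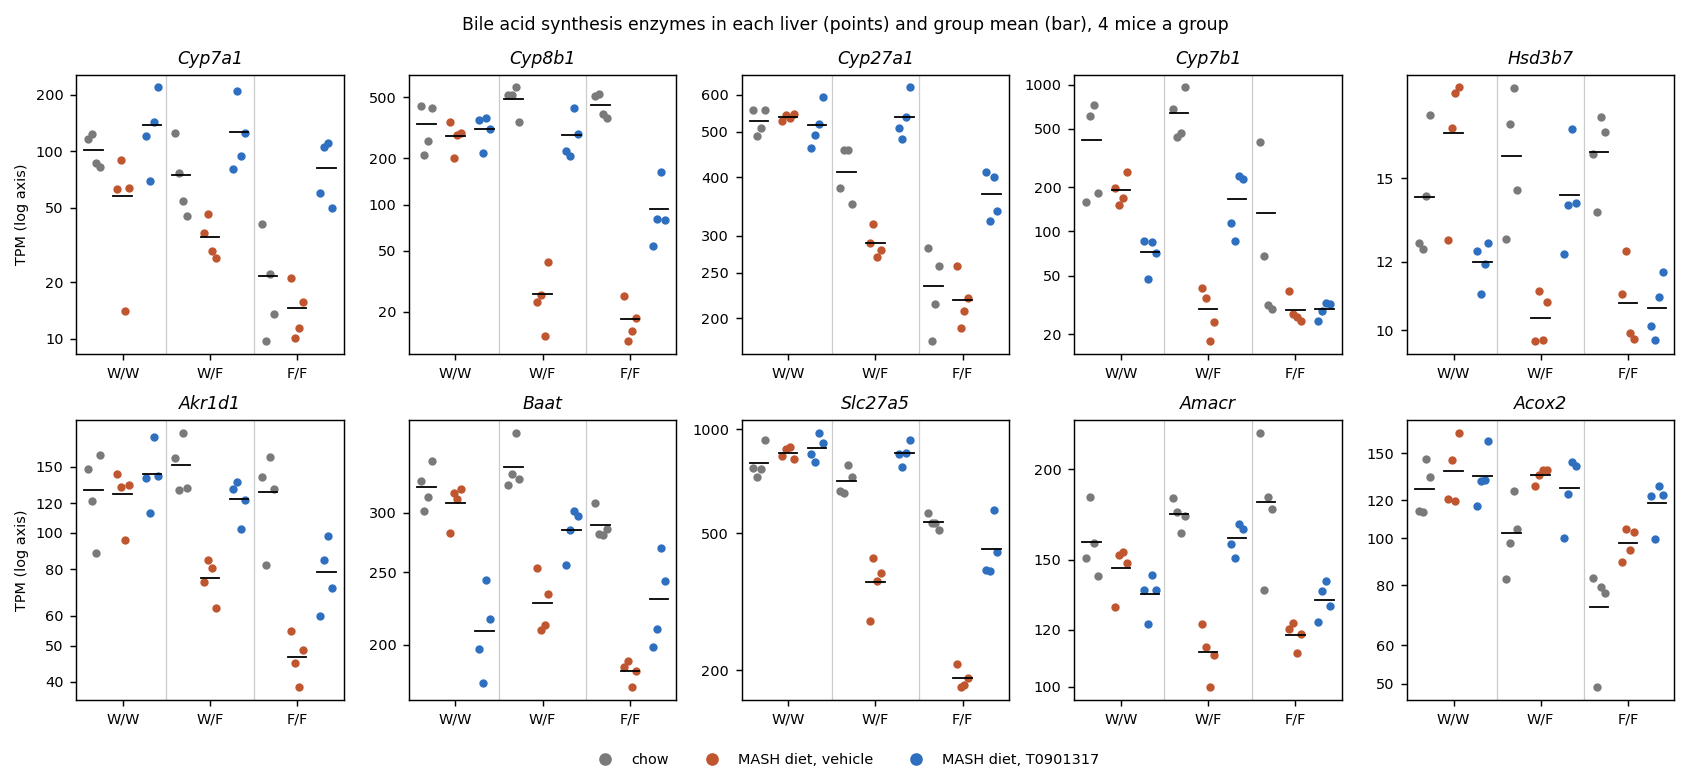
TPM of the 10 enzymes (vertical log axis) in each of the 36 livers (points) with the group mean (bar), for 3 genotypes and 3 treatments. Cyp8b1 sits between 12.8 and 42.3 TPM in all 8 mutant vehicle mice and at 200.4 TPM or more in every W/W mouse.

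Cyp8b1, the enzyme that directs synthesis toward cholic acid (ENSMUSG00000050445, 1 exon, chr9:121914356-121916305), showed the deepest loss. On vehicle its levels were 346, 200.4, 284 and 291 TPM in W/W mice. In W/F mice they were 23.1, 25.6, 13.8 and 42.3 TPM. In F/F mice they were 25.4, 12.8, 14.9 and 18.2 TPM. Every mutant mouse lay far below every W/W mouse, and the mutant groups overlapped. The log2 fold change was -3.45 ± 0.31 in W/F (SE, adjusted p = 8.38e-11 by limma) and -3.92 ± 0.31 in F/F (adjusted p = 2.02e-12). F/F against W/F on vehicle differed by -0.47 ± 0.31 (adjusted p = 0.293), which did not pass the test.

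On chow no such loss of Cyp8b1 was measured. Its levels were 443, 209, 258 and 425 TPM in W/W, 523, 517, 583 and 346 TPM in W/F and 508, 530.4, 388 and 366 TPM in F/F mice. These 3 groups overlapped, and neither mutant was called different from W/W. Against chow, the MASH diet with vehicle changed Cyp8b1 by -4.26 ± 0.31 in W/F (adjusted p = 1.25e-12). In F/F the change was -4.60 ± 0.31 (adjusted p = 1.06e-12), while in W/W it was -0.21 ± 0.31 (adjusted p = 0.757). That difference of responses was -4.05 ± 0.44 for W/F (adjusted p = 1.87e-08) and -4.40 ± 0.44 for F/F (adjusted p = 2.1e-08).

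T0901317 brought Cyp8b1 to 224, 206, 424 and 287 TPM in W/F mice. In F/F mice it brought 54.0, 80.5, 163 and 78.7 TPM. W/W mice with T0901317 had 356, 218, 367 and 309 TPM. The treated W/F mice overlapped with the W/W mice, whereas all treated F/F mice stayed below both. The response was 3.44 ± 0.31 in W/F (adjusted p = 2.22e-10), a 10.9-fold rise of TPM + 1, and 2.26 ± 0.31 in F/F (adjusted p = 4.75e-06), a 4.80-fold rise. F/F against W/W with T0901317 remained lower by -1.81 ± 0.31 (adjusted p = 1.05e-05).

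Cyp7a1, which opens the classic route (ENSMUSG00000028240, chr4:6265612-6275633, minus strand), was already low in F/F livers on chow. It stood at 116, 124, 86.1 and 82.2 TPM in W/W chow mice. F/F chow mice had 41.0, 9.67, 22.2 and 13.5 TPM, all below the W/W mice. W/F chow mice had 125, 76.5, 54.3 and 44.9 TPM and overlapped with W/W. The F/F change was -2.36 ± 0.45 (adjusted p = 0.00011), and F/F was also lower than W/F on chow, by -1.84 ± 0.45 (adjusted p = 0.00165). The W/F change, -0.52 ± 0.45, did not pass the test.

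On the MASH diet with vehicle Cyp7a1 was at 62.5, 90.1, 14.0 and 63.7 TPM in W/W mice. W/F mice had 36.4, 46.3, 29.2 and 27.1 TPM, and F/F mice had 21.0, 10.1, 11.3 and 15.6 TPM. W/W replicate 3 was as low as the F/F mice and set much of the W/W spread. The F/F change was -1.70 ± 0.45 (adjusted p = 0.00107) and became -2.27 without that replicate. For W/F the change was -0.48 ± 0.45 (adjusted p = 0.352), and it was called lower without W/W replicate 3, at -1.04 (adjusted p = 0.0256), and after rescaling, at -1.12 (adjusted p = 0.0344). F/F was lower than W/F by -1.23 ± 0.45 with an adjusted p of 0.049. With 1 vehicle mouse of either group left out, the adjusted p rose above 0.05 and the call was lost in 7 of 8 cases.

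Cyp7a1 was the enzyme whose response to T0901317 had the same sign in all 3 genotypes and passed the test in each. With T0901317 it reached 120.5, 69.1, 143 and 219.8 TPM in W/W mice. W/F mice reached 80.3, 209, 93.8 and 126 TPM, and F/F mice 60.0, 106, 111 and 49.8 TPM. In W/F and F/F every treated mouse lay above every vehicle mouse, and in W/W the groups overlapped. The responses were 1.40 ± 0.45 in W/W (adjusted p = 0.0408), 1.77 ± 0.45 in W/F (adjusted p = 0.000955) and 2.38 ± 0.45 in F/F (adjusted p = 0.000267). The W/W call ended in 4 of 8 single omissions. Without W/W vehicle replicate 3 the response was 0.83 (adjusted p = 0.25), and without T0901317 replicates 1, 3 and 4 the adjusted p was 0.0656, 0.0921 and 0.156. The call was also lost without a filter on low values (adjusted p = 0.0861) and when only the 2 W/W groups were fitted (adjusted p = 0.2). The response did not differ by the test between genotypes, with a difference of 0.38 ± 0.63 for W/F minus W/W (adjusted p = 0.632) and 0.99 ± 0.63 for F/F minus W/W (adjusted p = 0.241). Without W/W vehicle replicate 3 the latter was 1.55 (adjusted p = 0.0369).

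Cyp27a1, the mitochondrial hydroxylase that starts the alternative route (ENSMUSG00000026170, chr1:74713574-74737892), was ordered by the number of mutant alleles on vehicle and on chow. On vehicle it stood at 526, 544, 535 and 545 TPM in W/W mice. W/F mice had 290.0, 318, 270.4 and 279.5 TPM. F/F mice had 258, 191, 207 and 220.4 TPM. The 3 genotypes did not overlap on vehicle. W/F was lower than W/W by -0.89 ± 0.12 (adjusted p = 1.03e-07), F/F was lower than W/W by -1.30 ± 0.12 (adjusted p = 3.32e-11) and F/F was lower than W/F by -0.41 ± 0.12 (adjusted p = 0.0136). The last call was lost without F/F vehicle replicate 2 (adjusted p = 0.0575).

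Chow livers showed the same order for Cyp27a1, with 489 to 556 TPM in W/W, 349.9 to 457 TPM in W/F and 179 to 283 TPM in F/F mice. Again no 2 genotypes overlapped. F/F was called lower than W/W (-1.19 ± 0.12, adjusted p = 4.85e-09), and W/F was not (-0.37 ± 0.12, adjusted p = 0.32). T0901317 raised Cyp27a1 to 509, 482, 536 and 622 TPM in W/F and to 409.6, 323, 399 and 339 TPM in F/F mice. The rise was 0.89 ± 0.12 in W/F (adjusted p = 1.65e-07) and 0.75 ± 0.12 in F/F (adjusted p = 3.36e-05). W/W mice with T0901317 stayed at 461 to 592 TPM, a change of -0.06 ± 0.12 (adjusted p = 0.825). W/F and W/W mice with T0901317 overlapped, and F/F mice remained lower than W/W by -0.49 ± 0.12 (adjusted p = 0.000627).

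Cyp7b1, the oxysterol hydroxylase of the alternative route (ENSMUSG00000039519, chr3:18071950-18243338, minus strand), had the widest spread of the 10 on chow in W/W and F/F mice, with coefficients of variation of 69.1% and 137%, the latter set by 1 mouse. W/W chow mice had 159.8, 609.9, 722 and 183 TPM. W/F chow mice had 683, 437, 469 and 959 TPM. F/F chow mice had 408, 68.1, 31.4 and 29.7 TPM, so 1 F/F mouse reached the W/W range while the other 3 lay under all W/W mice. The F/F change on chow was -2.21 ± 0.54 (adjusted p = 0.00132). It was -3.04 (adjusted p = 2.27e-06) without F/F chow replicate 1, and its adjusted p was 0.0826 when only the 2 groups were fitted.

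On vehicle Cyp7b1 was at 199, 152, 168 and 253 TPM in W/W mice. It was at 40.9, 35.2, 17.9 and 24.2 TPM in W/F and at 39.1, 27.5, 26.1 and 24.6 TPM in F/F mice. All mutant mice lay below all W/W mice, and the mutant groups overlapped. The change was -2.71 ± 0.54 in W/F (adjusted p = 5.3e-05) and -2.67 ± 0.54 in F/F (adjusted p = 4.53e-05). Against chow, the MASH diet with vehicle changed Cyp7b1 in W/F by -4.38 ± 0.54 (adjusted p = 3.31e-08), from 437 to 959 TPM down to 17.9 to 40.9 TPM. In F/F the diet change of -1.29 ± 0.54 had an adjusted p of 0.0413, and it became -0.46 (adjusted p = 0.384) without F/F chow replicate 1. The call was also lost without F/F chow replicate 2 (adjusted p = 0.0641) or F/F vehicle replicate 2 (0.071), 3 (0.0761) or 4 (0.0836). It was lost too without a filter on low values (0.0728) and when only the 2 F/F groups were fitted (0.173).

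With T0901317 the W/W mice had 86.7, 47.5, 84.5 and 71.8 TPM of Cyp7b1, each below every W/W vehicle mouse. W/F mice had 114, 85.9, 237 and 228 TPM, each above every W/F vehicle mouse. F/F mice had 24.5, 28.6, 32.7 and 32.2 TPM, overlapping with F/F vehicle. The W/F rise was 2.39 ± 0.54 (adjusted p = 0.000264), and the F/F change was 0.02 ± 0.54 (adjusted p = 0.979). The W/W change of -1.41 ± 0.54 did not pass the test in the fit to all 36 mice (adjusted p = 0.0934). It did so when only the 2 W/W groups were fitted (adjusted p = 0.0103) and without the chow cohort (adjusted p = 0.00214), an omission chosen after the values were seen. The response in W/F exceeded that in W/W by 3.80 ± 0.76 (adjusted p = 9.75e-05). F/F was lower than W/W with T0901317 by -1.24 ± 0.54 (adjusted p = 0.0436), a call that leaving out 1 mouse ended in 7 of 8 cases.

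**Figure D2:**
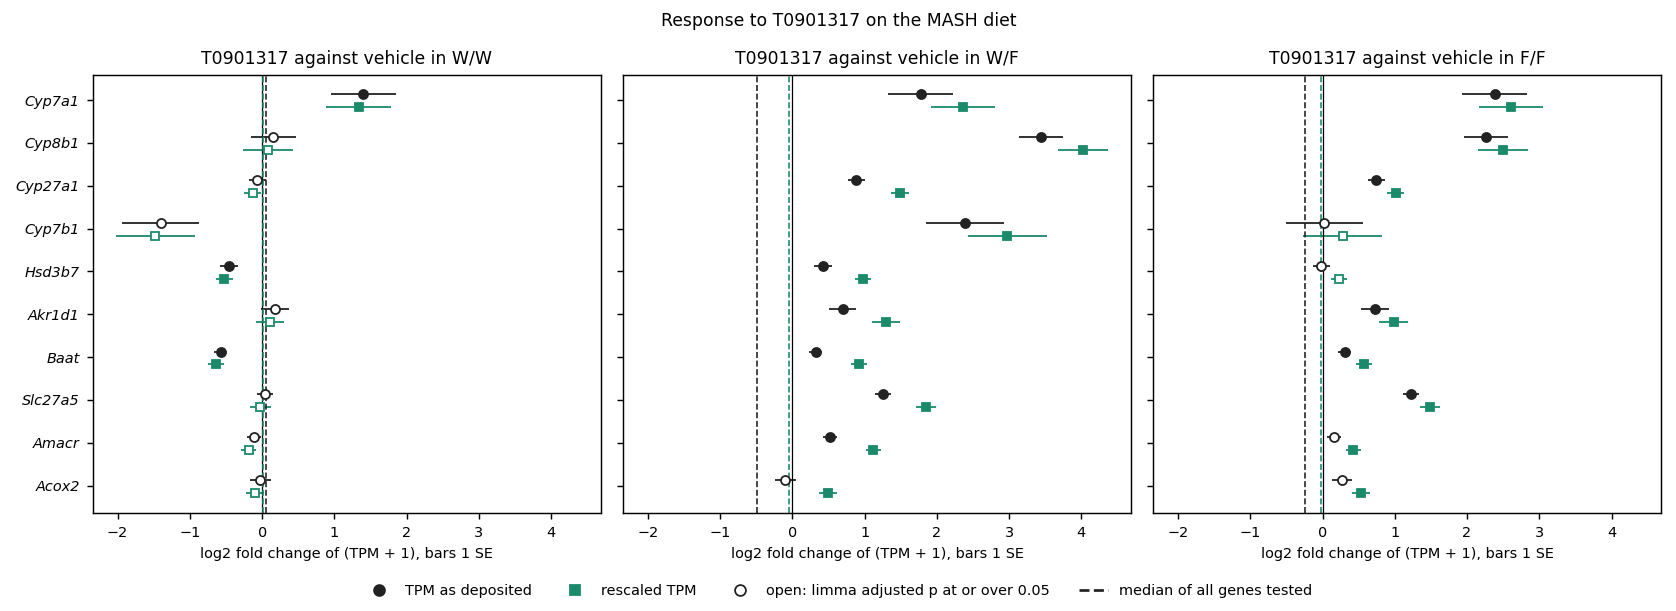
Log2 fold change of each enzyme with T0901317 against vehicle in W/W, W/F and F/F mice (bars, 1 SE; circles, TPM as deposited; squares, rescaled; filled, adjusted p under 0.05; dashed lines, median of all genes tested). Cyp7a1 is filled in all 3 panels, Cyp8b1 moves from 0.15 in W/W to 3.44 in W/F, and Cyp7b1 lies at -1.41 (W/W), 2.39 (W/F) and 0.02 (F/F).

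Among the ring-modifying enzymes, Akr1d1, the reductase that gives bile acids their bent ring junction (ENSMUSG00000038641, chr6:37530173-37568815), fell in both mutants on vehicle. It was at 144, 133, 95.9 and 135 TPM in W/W mice. It was at 74.0, 84.9, 80.5 and 63.0 TPM in W/F mice. F/F mice had 54.6, 44.8, 38.8 and 48.6 TPM. The 3 genotypes did not overlap, with a change of -0.73 ± 0.19 in W/F (adjusted p = 0.00123) and -1.42 ± 0.19 in F/F (adjusted p = 9.17e-08). On chow the F/F change was -0.02 ± 0.19 (adjusted p = 0.943), with 82.2 to 159.7 TPM in F/F and 88.3 to 161 TPM in W/W mice. T0901317 raised Akr1d1 to 103 to 136 TPM in W/F (0.70 ± 0.19, adjusted p = 0.00208) and to 60.0 to 98.0 TPM in F/F mice (0.72 ± 0.19, adjusted p = 0.00498).

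Hsd3b7, the dehydrogenase that acts after the first ring hydroxylation (ENSMUSG00000042289, chr7:127800604-127803802), had the lowest group mean of the 10 in every group, with 9.71 to 19.1 TPM over all mice. Its value is uncertain, since 99.2% of its exon bases lie under the annotated genes 9430064I24Rik on the other strand and Gm49388 on the same strand, and 83.1% of its 50-base words also occur in their transcripts. On vehicle it was at 12.7 to 19.1 TPM in W/W, 9.71 to 11.1 TPM in W/F and 9.75 to 12.3 TPM in F/F mice. The change was -0.65 ± 0.12 in W/F (adjusted p = 3.43e-05) and -0.60 ± 0.12 in F/F (adjusted p = 7.16e-05). With T0901317 it fell in W/W (-0.45 ± 0.12, adjusted p = 0.0145), rose in W/F (0.43 ± 0.12, adjusted p = 0.00321) and was at 9.73 to 11.7 TPM in F/F mice (-0.02 ± 0.12, adjusted p = 0.936). The W/W call was lost in 3 of 8 single omissions (without T0901317 replicate 2, adjusted p = 0.0543, or vehicle replicate 3, 0.0619, or 4, 0.061) and when only the 2 W/W groups were fitted (0.0721).

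Of the side-chain enzymes, Amacr, the racemase that sets the side chain in the form the oxidase accepts (ENSMUSG00000022244, chr15:10981756-10996626), had 129 to 154 TPM in W/W, 99.9 to 122 TPM in W/F and 111 to 123 TPM in F/F vehicle mice. Both mutants lay below W/W without overlap, by -0.38 ± 0.10 (adjusted p = 0.000885) and -0.30 ± 0.10 (adjusted p = 0.00621). T0901317 raised it in W/F to 151 to 168 TPM (0.52 ± 0.10, adjusted p = 2.7e-05), above every W/W mouse with T0901317 (122 to 143 TPM). In F/F the 4 treated mice, at 123 to 140.3 TPM, lay above the vehicle mice without passing the test (0.16 ± 0.10, adjusted p = 0.197).

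Acox2, the peroxisomal oxidase that takes the first step of side-chain shortening (ENSMUSG00000021751, chr14:8225511-8259353, minus strand), had its lowest chow and vehicle means in F/F. On chow it was at 113 to 146 TPM in W/W, 82.6 to 126 TPM in W/F and 49.2 to 82.8 TPM in F/F mice, and F/F fell below W/W without overlap (-0.83 ± 0.14, adjusted p = 3.83e-05). On vehicle W/W mice had 119.6 to 165 TPM, W/F mice 128 to 139 TPM and F/F mice 89.4 to 105 TPM. F/F was lower than W/W (-0.48 ± 0.14, adjusted p = 0.00356), whereas W/F was not called (-0.01 ± 0.14, adjusted p = 0.935) as deposited and was lower after rescaling (-0.67, adjusted p = 3.22e-05). It was the 1 enzyme higher on the MASH diet with vehicle than on chow in W/F (0.41 ± 0.14, adjusted p = 0.015) and F/F (0.46 ± 0.14, adjusted p = 0.00726). After rescaling, those changes were -0.087 (adjusted p = 0.578) and 0.12 (adjusted p = 0.456), so the call depends on the scaling. With T0901317 against vehicle, Acox2 was called in neither mutant as deposited. After rescaling it was higher in W/F (0.50, adjusted p = 0.00121) and in F/F (0.53, adjusted p = 0.00302).

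Slc27a5, the ligase that activates bile acids with coenzyme A (ENSMUSG00000030382, chr7:12988346-12998192, minus strand), was the most abundant of the 10 in W/W livers, and it fell with the smallest adjusted p of the 10 on vehicle. W/W vehicle mice had 837, 877, 890.0 and 821 TPM. W/F vehicle mice had 277, 423, 362 and 383 TPM. F/F vehicle mice had 208, 179, 181 and 190.1 TPM. The 3 genotypes were separate, at -1.26 ± 0.11 for W/F (adjusted p = 7.53e-11), -2.17 ± 0.11 for F/F (adjusted p = 5.46e-16) and -0.91 ± 0.11 for F/F against W/F.

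T0901317 raised Slc27a5 to 848, 779, 855 and 929.7 TPM in W/F mice, within the range of the W/W mice with T0901317 (804 to 976 TPM) but for 1 mouse. In F/F mice it reached 390.4, 387, 583 and 441 TPM, still below every W/W mouse. The size of the rise was close in the 2 mutants, at 1.25 ± 0.11 in W/F (adjusted p = 2.16e-10) and 1.23 ± 0.11 in F/F (adjusted p = 3.02e-09). On chow F/F mice had 510.0 to 572 TPM against 725 to 934 TPM in W/W mice (-0.57 ± 0.11, adjusted p = 0.000182).

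Baat, which completes conjugation by adding taurine or glycine (ENSMUSG00000039653, chr4:49489422-49506557, minus strand), fell with T0901317 in W/W mice and rose in both mutants. In W/W mice it went from 282, 319, 313 and 322 TPM on vehicle to 197, 178, 244 and 217 TPM with T0901317. W/F mice went from 254, 209, 212 and 234 TPM to 256, 284, 301 and 297 TPM. F/F mice went from 187, 190.1, 176 and 184 TPM to 198, 209.6, 269 and 243 TPM. Treated and vehicle mice did not overlap in any genotype, downward in W/W and upward in the mutants. The changes were -0.57 ± 0.09 (adjusted p = 3.79e-05), 0.32 ± 0.09 (adjusted p = 0.00228) and 0.31 ± 0.09 (adjusted p = 0.00961). The F/F call was lost without F/F T0901317 replicate 3 (0.23, adjusted p = 0.0703). Baat was the 1 enzyme called in W/F against W/W with T0901317, higher by 0.45 ± 0.09 (adjusted p = 0.000844), where 3.65% of all genes were called higher.

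Because the response to T0901317 was tested against that of W/W directly, the enzymes can be counted by that difference. The response was higher in W/F than in W/W for 7 enzymes (all but Cyp7a1, Akr1d1 and Acox2) and lower for none, where 5.27% of all genes were called higher. It was higher in F/F than in W/W for 4 (Cyp8b1, Cyp27a1, Baat and Slc27a5), where 3.29% were, and for 8 after rescaling, where 7.33% were. The diet response was lower in W/F than in W/W for 8 enzymes, where 5.13% of all genes were called lower, and lower in F/F for 6, where 4.54% were. These differences share the vehicle mice with the genotype comparisons above and are not independent of them. In W/W mice limma called none of the 10 for the MASH diet with vehicle against chow, where 12.9% of all genes were called, and 1 of them had a p under 0.05 before adjustment. Rescaled, Hsd3b7 was called higher, by 0.35 (adjusted p = 0.0299), where 15.4% of all genes were called in either direction. In the mutants the diet comparison gave 8 lower and 1 higher in W/F, where 8.53% of all genes were called lower and 52.4% higher. It gave 7 lower and 1 higher in F/F, where 9.27% were lower and 46.5% higher. Cyp7b1 was among these 7, with a call that was lost in most single omissions given above.

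**Figure D3:**
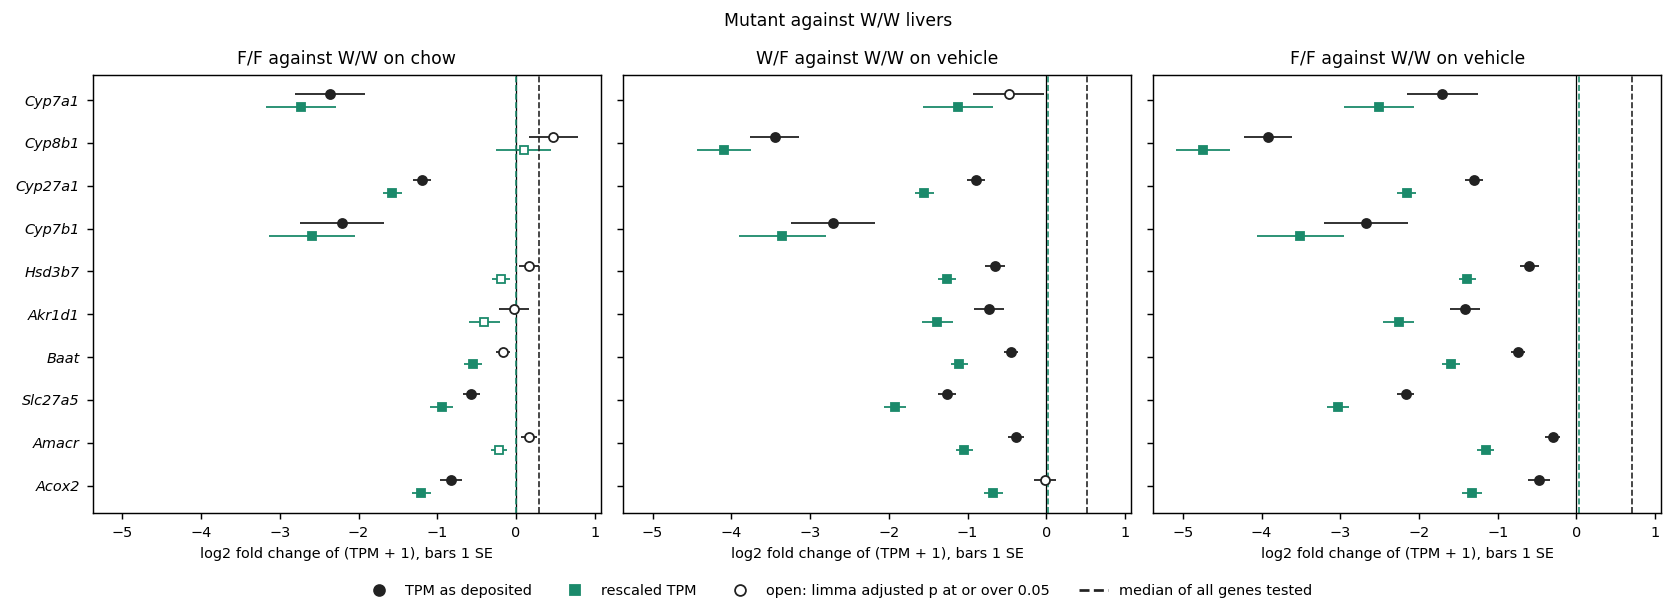
Log2 fold change of each enzyme against W/W mice, for F/F on chow and for W/F and F/F on vehicle (symbols as in the plot of T0901317 responses; dashed lines, median of all genes tested). On vehicle every F/F value is filled and below 0 under both scalings, while on chow Cyp8b1 lies at 0.48 and Cyp7a1 at -2.36.

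F/F livers also differed from W/F livers. Of the 10 enzymes, 6 were lower in F/F on chow, where 3.43% of all genes were called lower, 6 on vehicle, where 2.30% were, and 8 with T0901317, where 4.08% were. None was higher under either scaling. The vehicle count was 3 without W/F vehicle replicate 4 and 3 to 5 over all single omissions. Relative to hepatocyte markers in the same library, given below, the summed enzymes overlapped between W/F and F/F vehicle mice. With T0901317 they did not overlap on that measure, and F/F was lower. F/F against W/W with T0901317 was lower for 5 enzymes (Cyp8b1, Cyp27a1, Cyp7b1, Akr1d1 and Slc27a5), where 6.96% of all genes were called lower, and for all 10 after rescaling, where 22.4% were.

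Ratios within a library do not depend on its scaling, and they showed that the enzymes did not move in step. Cyp8b1 to Cyp27a1 was 0.369 to 0.657 in W/W vehicle, 0.0509 to 0.151 in W/F vehicle and 0.0672 to 0.0983 in F/F vehicle mice. On vehicle both mutants thus lay below W/W and overlapped with each other. The chow ratio was 0.428 to 0.796 in W/W, 0.988 to 1.38 in W/F and 1.42 to 2.97 in F/F mice, with no overlap between genotypes. There both mutants lay above W/W. Cyp27a1 was called lower in F/F than in W/W on chow, while Cyp8b1 was not called different. Cyp8b1 to Cyp7a1 on chow was 1.68 to 5.17 in W/W and 12.4 to 54.9 in F/F mice. With T0901317 it was 1.41 to 3.15 in W/W and 0.762 to 1.58 in F/F mice. Cyp7b1 to Cyp7a1 fell with T0901317 from 1.68 to 12.0 down to 0.327 to 0.720 in W/W mice and from 1.57 to 2.73 down to 0.270 to 0.647 in F/F mice. In W/F mice it went from 0.613 to 1.12 on vehicle to 0.412 to 2.53 with T0901317, and these overlapped. The ratios were described without a test.

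**Figure D4:**
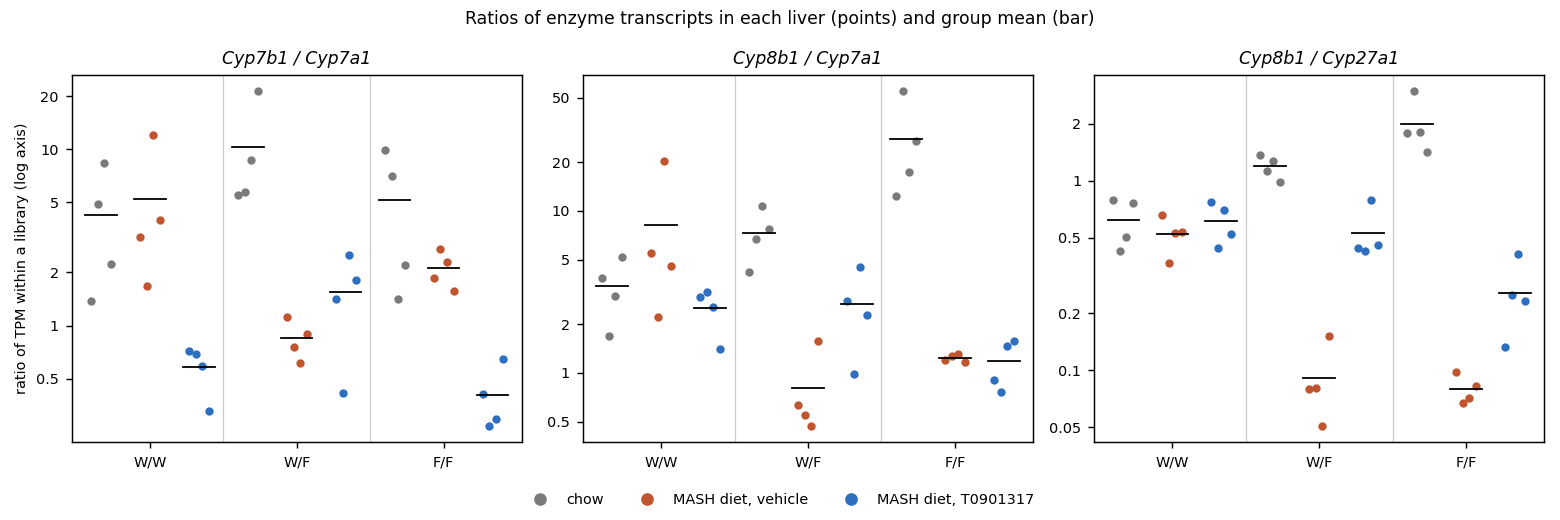
Ratios of TPM between enzymes within each library (vertical log axis; points, 36 mice; bars, group means). Cyp8b1 to Cyp27a1 rises with mutant alleles on chow, up to 2.97 in F/F mice, and drops to 0.151 or less in every mutant vehicle mouse.

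Bulk RNA cannot tell fewer hepatocytes from less RNA per hepatocyte, so markers of the cell types in liver were read beside the enzymes. Transcripts of 6 hepatocyte genes, among them Alb, Apoa1 and Ahsg, summed to 72118 to 95674 TPM in W/W, 69892 to 78571 TPM in W/F and 49615 to 54643 TPM in F/F vehicle mice. W/F and W/W overlapped in this sum as deposited. After rescaling they did not, at 93957 to 119062 in W/W, 55918 to 62726 in W/F and 33768 to 38463 in F/F mice. Among those genes 2 were higher and 2 lower in W/F than in W/W on vehicle, and none higher and 4 lower after rescaling. In F/F, 1 was higher (Ahsg) and 3 lower, and none higher and 5 lower after rescaling. Of all genes 61.6% were called higher and 6.83% lower in W/F, and 69.3% and 7.13% in F/F, as deposited. After rescaling the shares were 27.8% and 25.3% in W/F, and 31.3% and 27.7% in F/F. A ratio within a library is free of the scaling, and the summed enzymes were 2.71% to 3.69% of the hepatocyte sum in W/W, 1.67% to 1.83% in W/F and 1.67% to 1.85% in F/F vehicle mice. Both mutants lay below W/W in this ratio and overlapped with each other. The ratio was added after the values were seen and not tested. On chow the hepatocyte sums were 74875 to 110311 TPM in W/W and 76615 to 99633 TPM in F/F mice, which overlapped under both scalings. The ratio on chow also overlapped, at 2.54% to 4.09% in W/W and 1.92% to 3.37% in F/F mice. With T0901317 the ratio was 2.82% to 3.69% in W/W, 3.47% to 4.33% in W/F and 2.19% to 2.51% in F/F mice. The treated F/F mice lay below both other genotypes, and treated mice of each mutant lay above their vehicle mice.

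Markers of cholangiocytes, macrophages and stellate cells were mostly higher in the same livers, and those of endothelial cells were not. On vehicle 61.6% of all genes were called higher and 6.83% lower in W/F against W/W, and 69.3% and 7.13% in F/F, as deposited. After rescaling these shares were 27.8% and 25.3% in W/F, and 31.3% and 27.7% in F/F. On chow 43.0% of all genes were called higher in F/F as deposited and 16.1% after rescaling. All 5 cholangiocyte markers (Krt19, Krt7, Epcam, Sox9 and Spp1) were higher in both mutants on vehicle and in F/F on chow, under both scalings. Their sum was 54.0 to 61.4 TPM in W/W, 1163 to 1590 TPM in W/F and 2908 to 3554 TPM in F/F vehicle mice, with Spp1 making up most of it. Of 6 macrophage markers 5 were higher and 1 lower in both mutants on vehicle, with sums of 95.7 to 124 TPM in W/W, 664 to 1095 TPM in W/F and 855 to 1103 TPM in F/F mice. All 5 stellate markers were higher in both mutants on vehicle as deposited, with Lrat lower in F/F after rescaling, and had sums of 89.6 to 144 TPM in W/W, 568 to 760.1 TPM in W/F and 927 to 1130 TPM in F/F mice. None of these 16 markers was at 0 throughout a group. Of 4 endothelial markers none was higher and 2 were lower in W/F on vehicle (4 lower after rescaling), and 1 was higher and 2 lower in F/F (none higher and 3 lower after rescaling). Their sum was 51.1 to 61.8 TPM in W/W, 30.0 to 40.7 TPM in W/F and 41.7 to 60.6 TPM in F/F vehicle mice. Of 5 pericentral hepatocyte genes 1 was higher and 3 were lower in W/F on vehicle, and 1 was higher and 4 lower in F/F. The gene higher in both was Lgr5, not called after rescaling. They had sums of 11411 to 13053 TPM in W/W, 3486 to 5187 TPM in W/F and 1672 to 3689 TPM in F/F mice. The 5 periportal genes summed to 3813 to 4072, 2452 to 2621 and 1506 to 2356 TPM in the same groups. With T0901317 the hepatocyte sums were 57101 to 80646 TPM in W/F and 60732 to 77248 TPM in F/F mice, the cholangiocyte sums 102 to 278 TPM and 756 to 1696 TPM, and the pericentral sums 11364 to 14439 TPM and 3633 to 8029 TPM. The part of these shifts in the enzyme values was not tested.

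**Figure D5:**
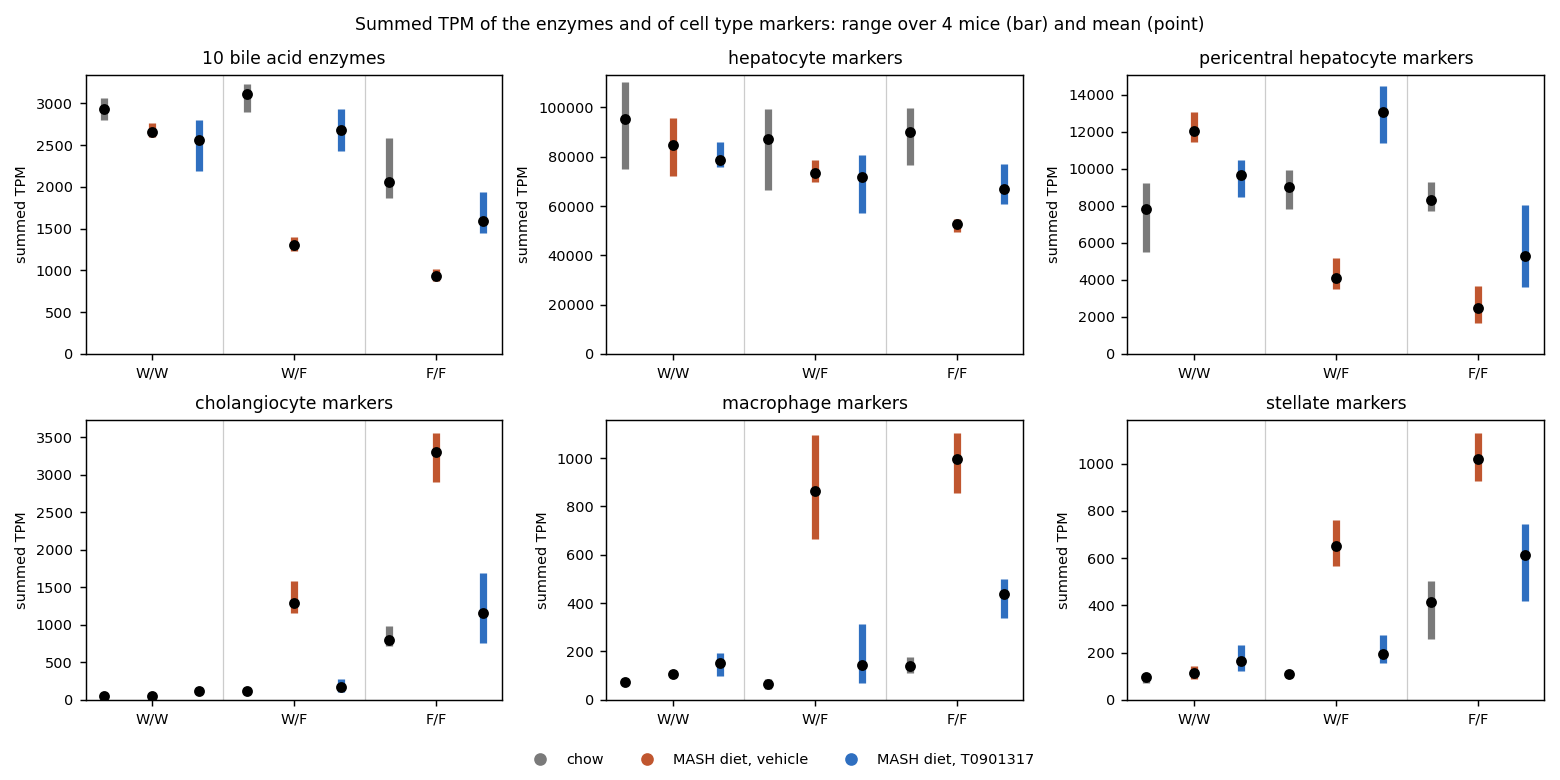
Summed TPM of the 10 enzymes and of markers of hepatocytes, pericentral hepatocytes, cholangiocytes, macrophages and stellate cells in the 9 groups (bars, range over 4 mice; points, mean). The enzymes fall in both mutants on vehicle, the hepatocyte sum as deposited overlaps between W/W and W/F, and the cholangiocyte sum reaches 3554 TPM in F/F vehicle mice.

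Other genes of bile acid synthesis were counted from a list of 14 (alternative hydroxylases, the muricholic acid enzyme Cyp2c70, peroxisomal partners and electron donors). F/F against W/W on vehicle, 8 were lower and 3 higher, where 7.13% and 69.3% of all genes were. After rescaling 11 were lower and 2 higher, where 27.7% and 31.3% of all genes were. Cyp2c70, which makes the muricholic acids of mice, fell by 2.39 on the log2 scale (adjusted p = 2.95e-12 by limma), from 481 to 789 TPM in W/W to 110.0 to 131 TPM in F/F mice. The peroxisomal thiolase and carrier gene Scp2 fell by 1.21 and the acyl-CoA synthetase Slc27a2 by 1.64. Cyp39a1, which hydroxylates another oxysterol, was higher under both scalings, by 1.76 as deposited, from 5.71 to 15.5 TPM in W/W to 31.2 to 39.0 TPM in F/F mice. Ch25h, the cholesterol hydroxylase found in macrophages, was listed at 0 in all W/W vehicle mice and at 3.20 to 5.74 TPM in F/F vehicle mice. On chow Cyp2c70 was already lower in F/F than in W/W, by -2.61. With T0901317 against vehicle 8 of the 14 rose and 2 fell in W/F, where 6.59% of all genes rose and 59.3% fell. After rescaling 11 rose and 2 fell, where 23.5% and 27.3% of all genes did. In F/F 7 rose and 1 fell under both scalings, where 3.95% and 31.2% of all genes did as deposited, and 8.28% and 8.12% after rescaling. In W/W 4 rose and none fell, where 7.87% and 2.91% did, and after rescaling 3 rose and 2 fell, where 8.05% and 5.52% did.

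Regulators of the pathway formed a list of 14, of which 13 were tested, since Fgf15, the intestinal hormone gene, was listed at 0 in every liver. Nr0b2, the repressor induced by bile acids, was lower in F/F than in W/W on vehicle under both scalings (-1.26 as deposited), at 18.5 to 44.3 TPM against 67.6 to 111 TPM. Nr1h4, the bile acid receptor, was lower as well (-0.30). The other 6 regulators called were higher as deposited (Nr5a2, Nr1h2, Fgfr4, Mafg, Prox1 and Ppargc1a). Nr1h2 there is a separate gene from Nr1h3, the LXRalpha transcript. As deposited 69.3% of all genes were called higher and 7.13% lower, so the count of 6 among 13 does not stand out. After rescaling 1 regulator was higher, Ppargc1a (0.68), and 6 were lower, where 31.3% of all genes were called higher and 27.7% lower. Fgfr4, the liver receptor for the hormone of Fgf15, was lower with T0901317 than with vehicle, by -0.67 for W/W, -1.06 for W/F and -0.61 for F/F mice, and was called under both scalings in each. As a check of the agonist, 8 LXR target genes summed to 6870 to 12262 TPM on vehicle and 22996 to 23772 TPM with T0901317 in W/W mice, sums in which the lipogenic desaturase Scd1 made up 5889 to 11171 TPM and 21335 to 22177 TPM. In F/F mice they summed to 238 to 287 TPM and 1088 to 1314 TPM, with 6 of the 8 higher with T0901317 and none lower. In W/F mice they summed to 662 to 1021 TPM and 2637 to 3198 TPM, with 5 of the 8 higher and 2 lower, or 6 higher and 1 lower after rescaling. Of all genes 3.95% were called higher and 31.2% lower with T0901317 in F/F, and 6.59% and 59.3% in W/F, as deposited. After rescaling 23.5% were called higher and 27.3% lower in W/F.

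Over the 9 group means of log2(TPM + 1), the genes most like 3 of the enzymes were named among 9224 genes, as a description in which genes share all libraries. For Cyp8b1 they were Scp2 (Pearson's r = 0.985), Gm11789 (0.985) and Ndufaf1 (0.976). For Cyp7a1 they were Upp2 (0.947), Dclk3 (0.947) and Ces2a (0.935). For Cyp7b1 they were Slc46a1 (0.972), Gm10658 (0.968) and Gtpbp4-ps1 (0.967). Between the enzymes themselves, Cyp8b1 was closest to Akr1d1 (0.949), Cyp7a1 to Cyp27a1 (0.895) and Cyp7b1 to Baat (0.877), each over 9 group means. Acox2 had the lowest value with Amacr (-0.44) and its own highest with Cyp27a1 (0.70).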

How the data were processed

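The authors deposited 1 table of TPM for the 36 livers, and every sample column adds up to the same total. Per the submitters' processing notes, Trimmomatic 0.36, STAR 2.5.2b, featureCounts and Subread 1.5.2 were used with build GRCm38 (mm10), and the annotation is not given in the sources used here. TPM are not counts, so limma 3.58.1 (R 4.3.3) fitted log2(TPM + 1) with 1 mean per group, over the 16638 genes that reached 1 TPM in 4 or more samples (moderated variances with a trend, 27 residual degrees of freedom, two-sided tests, Benjamini-Hochberg per comparison). The fit was also run on simulated data for T0901317 against vehicle in W/W only. That simulation held few changed genes and no broad shift, so it does not bear on the mutant comparisons. Rescaling used the median ratio over 13950 genes. Depth was recovered with exon lengths from GENCODE M21: 93.05% to 95.11% of values between 0.02 and 0.4 TPM were then within 0.1 of a whole read, where chance gives 20%. Depth limits cover counting error only, and the labels mention no molecular identifiers. Coordinates are those of GENCODE M21 on GRCm38. All 10 enzymes are described, other genes come from the lists and from the likeness rule (3 highest Pearson's r over group means, among genes with a mean of at least 5 TPM). The enzymes and lists were chosen with earlier results of these data known. No sample was dropped and no value imputed.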

Additional observations from a re-analysis of the deposited data

Results flagged for a closer look

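In 2 of 90 sets of 4 mice, 1 mouse lay far from its group by Dixon's test, which by chance marks about 1 set in 20 (5%). Cyp7b1 was at 408 TPM in F/F chow replicate 1, with the nearest mouse of its group at 68.1 TPM. Acox2 was at 49.2 TPM in F/F chow replicate 2, with the nearest at 77.1 TPM.

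The response to T0901317 differed between W/F and W/W mice, as a difference of log2 fold changes tested with limma, by 3.29 for Cyp8b1 (adjusted p = 3.69e-07), 0.95 for Cyp27a1 (1.85e-05), 3.80 for Cyp7b1 (9.75e-05), 0.88 for Hsd3b7 (9.56e-05), 0.90 for Baat (1.06e-06), 1.21 for Slc27a5 (3.13e-07) and 0.64 for Amacr (0.000231). Between F/F and W/W mice it differed by 2.11 for Cyp8b1 (adjusted p = 0.00075), 0.81 for Cyp27a1 (0.000672), 0.88 for Baat (1.15e-05) and 1.18 for Slc27a5 (3.62e-06).

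The response to the MASH diet with vehicle, which includes the change of cohort, differed between W/F and W/W mice by -4.05 for Cyp8b1 (adjusted p = 1.87e-08), -0.53 for Cyp27a1 (0.00853), -3.55 for Cyp7b1 (0.000263), -0.80 for Hsd3b7 (0.000381), -0.97 for Akr1d1 (0.00328), -0.53 for Baat (0.000894), -1.09 for Slc27a5 (1.85e-06) and -0.52 for Amacr (0.00228). Between F/F and W/W mice it differed by -4.40 for Cyp8b1 (adjusted p = 2.1e-08), -0.77 for Hsd3b7 (0.000889), -1.39 for Akr1d1 (0.000173), -0.57 for Baat (0.000664), -1.61 for Slc27a5 (1.99e-08) and -0.47 for Amacr (0.00692). The W/W mice are shared by all of these differences.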

How the results depend on the processing

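Counts of enzymes called were recomputed under these changes: pseudocount 0.1, genes reaching 5 TPM in 4 samples, every gene above 0, rescaling, a replicate block, a fit of the compared groups alone, omission of each mouse and, chosen after seeing the data, without the chow cohort. Rescaling moved 3 counts past 1.5 times: the diet comparison in W/W to 1, that of F/F with W/W on T0901317 to 10, and the T0901317 response of F/F minus W/W to 8. Leaving out the chow cohort moved that last count to 7, and W/F against W/W with T0901317 to 3. Over single omissions T0901317 against vehicle in W/W gave 1 to 3 calls, with 1 without W/W vehicle replicate 3, and F/F against W/F on vehicle gave 3 to 5, against 6 with all mice. Other counts stayed within 1.5 times. Of 190 single-gene results, rescaling left 162 the same. With the sign kept, it gave 21 a call that they lacked as deposited and took 1 call away. The other 6 changed sign. Acox2 went to 0.50 for T0901317 in W/F, to -0.087 for diet in W/F and to 0.59 for the T0901317 response of W/F minus W/W. Baat went to -0.38 between F/F and W/W on T0901317, and Hsd3b7 and Amacr to -0.31 each for F/F against W/F on chow. Among these 6, the Acox2 diet result was called as deposited and not after rescaling. The others were called only after rescaling. Rescaling removes the shift of the median gene by construction. The cause of the other moves was not tested. The replicate number did not pair samples (median correlation of same-numbered deviations 0.013 over 144 pairs, 11 of 36 samples closest to their own number). The replicate block left 187 of 190 results on the same side of the threshold, took Cyp7b1 between F/F and W/W on T0901317 to an adjusted p of 0.0507 and Cyp7a1 in F/F against W/F on vehicle to 0.0506, and brought Hsd3b7 in the T0901317 response of F/F minus W/W to 0.04. Depth limits Hsd3b7: it rests on 219 to 537 reads, a Poisson error of 4.32% to 6.76%, about the size of its spread between mice in W/W T0901317 (5.83%) and W/F vehicle (6.89%). Cyp8b1 fell to a similar count, 216 reads with an error of 6.8%, but its spread between mice was 18.5% or more in every group.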
